A study of Homo sapiens with 9 samples.

Results

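The nuclear genes of oxidative phosphorylation encode most subunits of the respiratory chain and of ATP synthase, the enzyme complexes of the inner mitochondrial membrane. They were taken by symbol: NDUFA, NDUFB, NDUFC, NDUFS or NDUFV with a number, SDHA to SDHD, and symbols that begin with UQCR, with ATP5, or with COX4 to COX8 followed by A, B or C. The rule matched 80 features, of which UQCRBP1 was left out as a pseudogene, so 79 of 46846 features in the deposited table were members. Of these, 33 belong to complex I, 4 to complex II, 8 to complex III, 16 to complex IV and 18 to complex V. NDUFA4 and its paralogue NDUFA4L2 carry a complex I name and were counted with complex IV, where NDUFA4 is found, and COX7A2L, a COX7A relative of respiratory supercomplexes, was also placed there. CYC1, COX4I1, NDUFAB1 and the electron carrier CYCS fall outside the rule and were described as a list of their own.

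RNA was sequenced from MDA-MB-231, an established human triple-negative breast cancer cell line. There were 3 libraries from cells given indisulam (3.3 µM, 12 h), 3 from cells given pladienolide B (10 nM, 6 h) and 3 from cells given DMSO, the solvent control, with the time labelled 12 h. Indisulam is a sulfonamide that makes DCAF15, part of a ubiquitin ligase, bind the splicing factor RBM39, which is then degraded. Pladienolide B binds SF3B1 in the U2 snRNP and blocks recognition of intron branch sites. Pladienolide B was thus set against a control of another labelled time, and the agent and the time cannot be told apart in that comparison. Whether the 3 libraries of a group come from cultures of their own is not stated, and the p-values rest on the spread between these libraries, which may be technical.

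In oxidative phosphorylation, complex I takes electrons from NADH and complex II takes them from succinate, and both pass them to ubiquinone. Complex III hands the electrons on to cytochrome c and complex IV to oxygen, and complexes I, III and IV pump protons out of the matrix. Complex V, the ATP synthase, lets the protons back in and makes ATP. Complexes I, III, IV and V also hold subunits encoded by mitochondrial DNA, while complex II is encoded by nuclear genes alone. The promoters of the nuclear genes are known for binding sites of the activators NRF1, GABP (an ETS factor) and YY1.

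Promoter windows of 250 bases before to 50 bases after the gene start were available from RefSeq (GRCh38.p14) for 62 of the 79 members. The windows of 6 members that lead the results are printed 5′ to 3′ on the gene's strand. They belong to the highest complex I member and the lowest member with pladienolide B (NDUFS6 and NDUFV3), the highest and the lowest member with indisulam (NDUFS4 and UQCRC1), the highest complex II member with pladienolide B (SDHB) and the highest complex IV member with pladienolide B (COX6A1). Capitals mark matches to the NRF1 core GCATGCGC, the ETS letters CCGGAAG and the YY1 letters AAGATGGCG on either strand. The windows are chr5:1801157-1801456 (NDUFS6, plus strand), chr5:53560389-53560688 (NDUFS4, plus), chr21:42893059-42893358 (NDUFV3, plus), chr1:17053983-17054282 (SDHB, minus), chr3:48609597-48609896 (UQCRC1, minus) and chr12:120437863-120438162 (COX6A1, plus).
NDUFS6: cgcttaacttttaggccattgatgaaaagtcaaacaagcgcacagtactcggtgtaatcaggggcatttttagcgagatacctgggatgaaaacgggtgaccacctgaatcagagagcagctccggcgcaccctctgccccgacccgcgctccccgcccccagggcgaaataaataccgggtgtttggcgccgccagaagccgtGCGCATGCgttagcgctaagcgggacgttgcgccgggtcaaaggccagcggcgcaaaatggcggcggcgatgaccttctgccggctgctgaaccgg
NDUFS4: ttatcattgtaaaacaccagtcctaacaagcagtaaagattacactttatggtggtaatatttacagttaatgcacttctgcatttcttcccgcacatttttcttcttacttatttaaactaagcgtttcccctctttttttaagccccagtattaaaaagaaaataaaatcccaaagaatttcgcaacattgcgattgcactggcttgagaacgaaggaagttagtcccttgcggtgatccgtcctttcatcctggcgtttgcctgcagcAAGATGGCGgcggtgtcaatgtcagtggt
NDUFV3: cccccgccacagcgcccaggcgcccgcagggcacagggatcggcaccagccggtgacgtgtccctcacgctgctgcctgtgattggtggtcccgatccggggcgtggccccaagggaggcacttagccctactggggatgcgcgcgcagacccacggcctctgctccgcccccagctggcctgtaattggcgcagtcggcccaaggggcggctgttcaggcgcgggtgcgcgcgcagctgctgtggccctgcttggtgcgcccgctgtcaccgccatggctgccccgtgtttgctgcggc
SDHB: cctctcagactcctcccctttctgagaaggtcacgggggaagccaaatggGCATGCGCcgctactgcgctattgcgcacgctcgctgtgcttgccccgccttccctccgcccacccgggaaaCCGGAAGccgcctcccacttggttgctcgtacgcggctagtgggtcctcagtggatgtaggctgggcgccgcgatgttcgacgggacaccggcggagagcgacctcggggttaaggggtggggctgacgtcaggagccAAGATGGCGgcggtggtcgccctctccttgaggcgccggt
UQCRC1: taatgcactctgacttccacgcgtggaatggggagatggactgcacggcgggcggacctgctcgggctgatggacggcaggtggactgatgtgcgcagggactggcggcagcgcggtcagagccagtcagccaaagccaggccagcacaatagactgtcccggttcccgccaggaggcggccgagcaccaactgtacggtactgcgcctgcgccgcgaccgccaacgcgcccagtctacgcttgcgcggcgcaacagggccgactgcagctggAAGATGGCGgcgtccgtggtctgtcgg
COX6A1: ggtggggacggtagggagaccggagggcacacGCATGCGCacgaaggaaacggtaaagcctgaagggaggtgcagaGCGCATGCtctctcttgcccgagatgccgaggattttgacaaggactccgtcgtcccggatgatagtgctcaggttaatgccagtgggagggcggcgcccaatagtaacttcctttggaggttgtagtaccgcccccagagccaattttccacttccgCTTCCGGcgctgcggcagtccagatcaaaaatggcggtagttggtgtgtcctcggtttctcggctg
The NRF1 core stood in 12 of the 62 member windows (19.4%), in 3.05% of all 35116 windows and in 4.57% of the 15655 windows of genes tested here. The ETS letters stood in 17 member windows (27.4%), against 10.3% of all windows and 2506 of the 15655 tested. The YY1 letters stood in 7 member windows (11.3%), against 1.75% of all and 3.29% of those tested. CCAAT stood in 35.5% of member windows, 34.6% of all and 34.3% of those tested, and TATAAA in 9.68%, 11.5% and 6.59%. Each motif was counted on both strands and matches of different motifs could overlap. The YY1 letters contain ATG, and in the windows of NDUFS4, SDHB and UQCRC1 the match lay after the gene start. The RefSeq windows of NDUFV3 and UQCRC1 lie inside the deposited gene spans, downstream of the starts of those spans. These matches describe the letters in a window and no binding was measured.

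Values are deposited reads after scaling by a size factor for each library, called normalised reads here. The libraries held 60733086 to 68666341 reads with indisulam, 64936378 to 83910831 with pladienolide B and 59312100 to 74627193 with DMSO. The normalised totals were 62895851 to 63690595, 82366487 to 87510746 and 60435009 to 61583500 in the same 3 groups, so a library's total after the deposited scaling was higher with pladienolide B. For that reason counts of members over all, by complex and by submodule are also given with all libraries scaled to the same total. The mesenchymal and basal-like markers chosen for the line (VIM, CD44, EGFR, CAV1, AXL and ZEB1) summed to 351187 to 368379 normalised reads with indisulam, 500005 to 572671 with pladienolide B and 366412 to 389620 with DMSO. Of these 6 markers 5 were higher with pladienolide B and EGFR was lower (-0.94), which became 2 and 2 with the same total and 1 and 3 under quantile normalisation. The receptors ESR1 and PGR were at 2.04 normalised reads or less in every library, whereas the 8 luminal markers summed to 90353 to 93707, 135808 to 147691 and 93720 to 100887, most of it from the keratins KRT8 and KRT18. Of the 6 luminal markers tested 1 rose and 1 fell with indisulam and 5 rose with pladienolide B (3 rose and 2 fell with the same total, as under quantile normalisation), and their part in the members' results was not tested. The leukocyte markers PTPRC and CD3E stood at 26.1 normalised reads or less, the 4 leukocyte markers summed to 7405 to 7921, 11515 to 14918 and 6638 to 7610, nearly all from CD68, and the 4 fibroblast markers summed to 986 to 1446, 979 to 1545 and 1016 to 1427. Of the 3 fibroblast markers tested 0 rose and 1 fell with indisulam, and 1 rose and 2 fell with pladienolide B (0 and 2 with the same total). In bulk RNA, a change in RNA per cell and a change in the mix of cells cannot be told apart.

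Of the 79 members, 73 had a mean of at least 10 normalised reads over the 9 libraries and were tested. The other 6 are tissue forms and paralogues: COX6A2 and COX7A1, the heart and muscle forms, COX6B2, the testis form, COX7B2, NDUFA4L2 and ATP5MGL. COX6A2 was at 0 reads in all 9 libraries, and the highest value of the other 5 was 18.1 (ATP5MGL in a pladienolide B library). NDUFA4L2 overlaps SHMT2 and ATP5MGL overlaps CYB5R3, both far more abundant, so even those few reads cannot be assigned. Among the 73 tested members, the mean level ran from 1824 (NDUFB5) to 49296 (ATP5F1B) normalised reads. Per kilobase of the annotated main transcript, the highest levels were those of ATP5MF (58399.6 normalised reads) and COX8A (38927), and the lowest those of NDUFV3 (430.05) and SDHC (587). The transcripts of NDUFV3 and SDHC have 4676 and 13566 bases, against a median of 773 over the tested members. The rank depends on that length, and the mean of SDHC was 7966 normalised reads.

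Almost every tested member was higher with pladienolide B. The call rule was a limma adjusted p under 0.05, with p-values adjusted over 16846 features. With it, 71 of 73 members were higher than in DMSO, 1 was lower (NDUFV3) and 1 was not called (NDUFV2), against 34.3% of all features higher and 35.5% lower. The members' median log2 fold change was 0.78, between -0.72 and 1.09, while the median of all features was -0.01. All 3 pladienolide B values lay above all 3 DMSO values in 71 members, below them in 1, and overlapped in 1, while of all features 35.5% lay above and 36.3% below. With the same total per library, 59 members were higher and 3 lower, against 16.2% and 53.9% of all features, and the medians were 0.31 for the members and -0.48 for all features. Members below 0 then included NDUFV3, NDUFV2 and SDHA, which were called, and NDUFA5, SDHC, SDHD and UQCRFS1, which were not. Of the 71 higher members, 58 were called higher under all 4 other scalings tried (TMM, quantile and 2 forms of the same total), and all 71 in each of 9 fits that left out a library.

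With indisulam fewer members differed from DMSO, and they did so in both directions. With the same rule 22 of 73 were higher than in DMSO, 4 were lower and 47 were not called, against 14.5% of all features higher and 12.4% lower. The median was 0.13 for the members and 0.05 for all features, and the members ran from -0.34 (UQCRC1) to 0.42 (NDUFS4). The indisulam values lay above all DMSO values in 37 members, below them in 10 and overlapped in 26, while of all features 27.4% lay above and 21.0% below. With the same total per library 8 members were higher and 8 lower, against 10.2% and 15.1% of all features, and with TMM scaling the split was 8 and 7. The 8 higher with the same total were 6 of complex I with UQCRHL and COX5B. The number higher fell to 6 without DMSO replicate 3, 7 without DMSO replicate 2, 8 without indisulam replicate 1 and 13 without indisulam replicate 2. It was 31 without pladienolide B replicate 2, 34 with only the indisulam and DMSO libraries fitted, and 38 with the replicate number as a block. Some members were called higher in all 9 fits that left out a library and under all 4 other scalings. They were NDUFS4, NDUFS6, NDUFB2, NDUFB3, NDUFB4 and NDUFC2, all of complex I. Those called lower in all of these fits and scalings included UQCRC1 and SDHA. These members were singled out after their values were seen.

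**Figure D1:**
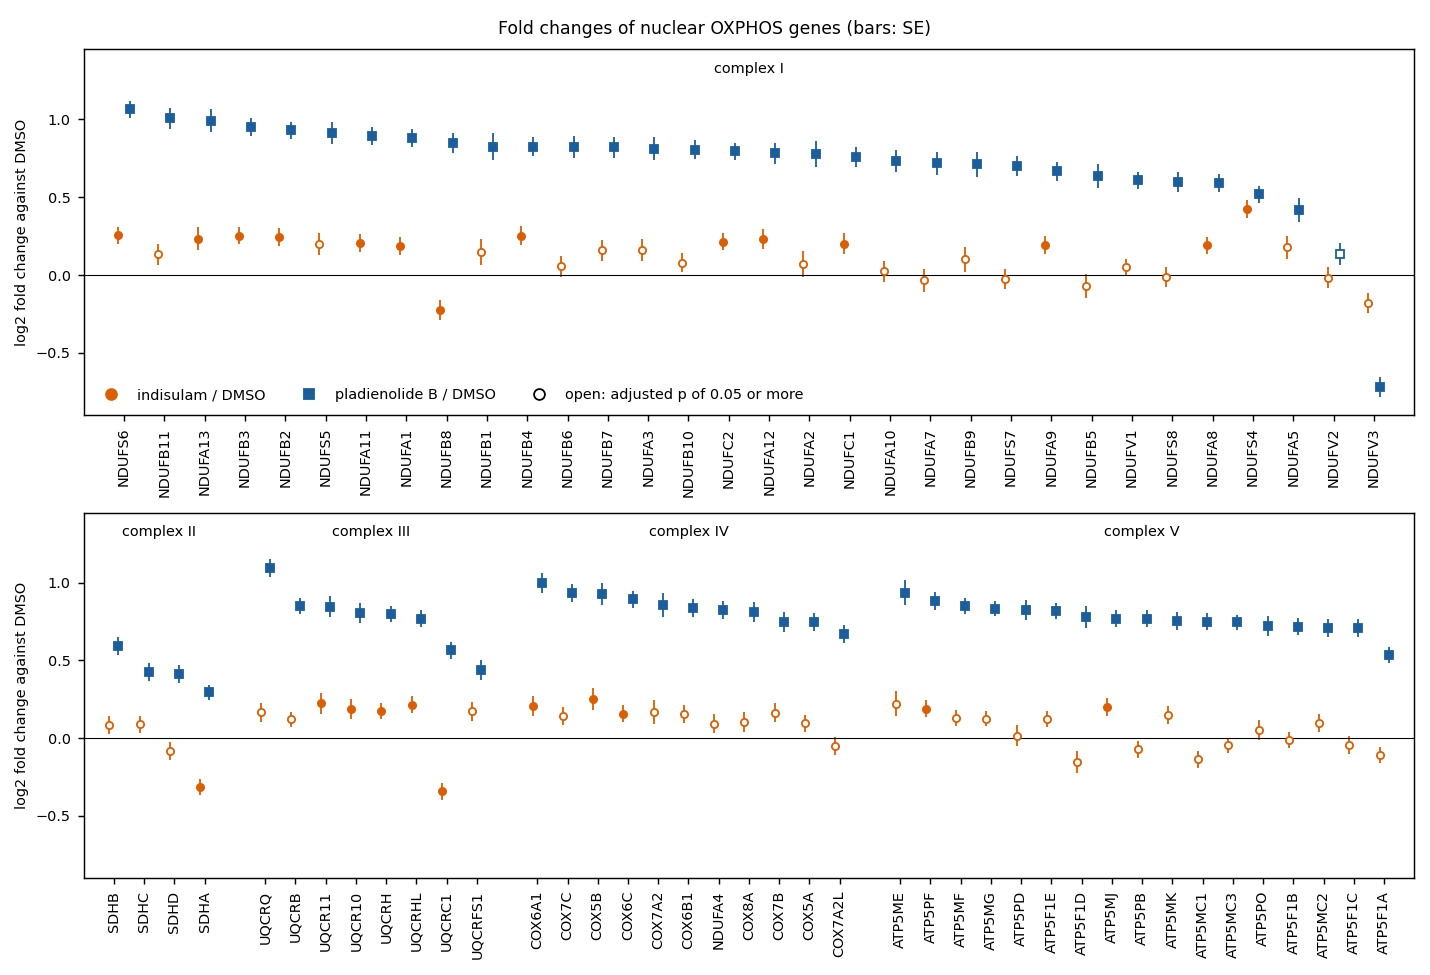
Log2 fold change against DMSO (vertical axis, points; bars are SE from the fit) of 72 of the 73 tested members, ordered within each complex by the pladienolide B value; filled points passed an adjusted p under 0.05. Pladienolide B points lie above 0 for all but NDUFV3, with complex II between 0.29 and 0.59; indisulam points lie on both sides of 0.

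Complex I has an NADH-oxidising end, a ubiquinone-binding part next to it, and a membrane arm that pumps protons. The NADH-oxidising end held both exceptions of the pladienolide B comparison. NDUFV3, an accessory subunit of that end (GSHG0027801, hg38 chromosome 21, 42879644 to 42913299), had 2104, 2141 and 2171 normalised reads with indisulam, 1421, 1475 and 1516 with pladienolide B, and 2390, 2362 and 2518 with DMSO. All pladienolide B values lay below all others, and NDUFV3 fell by 0.72 ± 0.07 on the log2 scale (± is the SE beside log2 values; adjusted p = 2.8e-07), a fold of 0.607. With indisulam the 3 values were also below DMSO but the difference did not pass at the deposited scaling (-0.18 ± 0.07, adjusted p = 0.0564). It was called lower with TMM scaling (-0.22), quantile normalisation (-0.21) and the same total per library (-0.23). NDUFV3 gives a long and a short protein by inclusion or skipping of an exon, and values per gene do not separate these forms.

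NDUFV2, a core iron-sulfur subunit, had 4091, 4177 and 4049 normalised reads with indisulam, 4316, 4897 and 4498 with pladienolide B, and 4508, 3991 and 3989 with DMSO. The groups overlapped between pladienolide B and DMSO (0.14 ± 0.07, adjusted p = 0.0942), and 82.0% of its 50-base transcript windows are shared with another annotated gene. It is named here as the member without a call. With the same total per library NDUFV2 was called lower (-0.34). NDUFV1, the core subunit that binds FMN and oxidises NADH, was higher with pladienolide B by 0.61 ± 0.06 (adjusted p = 3.48e-07), at 15152 ± 674 against 9945 ± 508 normalised reads in DMSO (SD, n = 3).

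The same end also held NDUFS6 and NDUFS4. NDUFS6, a zinc-binding accessory subunit (GSHG0034081, chromosome 5, 1801399 to 1816048), had 10523, 10348 and 10102 normalised reads with indisulam, 17442, 19453 and 17448 with pladienolide B, and 8770, 8621 and 8550 with DMSO. The 3 groups did not overlap. It rose by 1.06 ± 0.06 with pladienolide B (2.09-fold, adjusted p = 1.47e-09) and by 0.26 ± 0.06 with indisulam (adjusted p = 0.00426). NDUFS4, an accessory subunit that holds the NADH-oxidising end in place (GSHG0034322, chromosome 5, 53560639 to 53683338), had 4477, 4444 and 4281 normalised reads with indisulam, 4699, 4683 and 4701 with pladienolide B, and 3406, 3185 and 3246 with DMSO. Its rise with indisulam, 0.42 ± 0.06 (1.34-fold, adjusted p = 0.000137), was the largest of any member there, and with pladienolide B it rose by 0.52 ± 0.06 (adjusted p = 1.73e-06). With pladienolide B and the same total per library it stood at 0.05 and was not called. Among the 7 members of this end, 5 were higher and 1 lower with pladienolide B (median 0.61), and 3 were higher with indisulam (median 0.07). At equal library totals 4 were higher and 2 lower with pladienolide B, and 2 higher and 1 lower with indisulam.

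The ubiquinone-binding part, with NDUFS7, NDUFS8 and NDUFA9 among its subunits, had 6 members, and all 6 were higher with pladienolide B (median 0.63; 3 with the same total). NDUFA9, an accessory subunit, had 4787 ± 219 normalised reads with indisulam, 6644 ± 174 with pladienolide B and 4188 ± 167 with DMSO (SD, n = 3). It was called higher with indisulam (0.19 ± 0.06, adjusted p = 0.0288), where 1 of the 6 members was higher and 1 lower, and the median of the 6 was -0.02. Scaled to the same total, NDUFA9 stood at 0.14 and was not called, and none of the 6 was higher and 1 was lower at the limma threshold.

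All 20 members of the membrane arm were higher with pladienolide B (0.59 to 1.01, median 0.82), and 9 were higher and 1 lower with indisulam (median 0.17). At equal totals 18 were higher with pladienolide B, and 4 were higher and 1 lower with indisulam. NDUFB11, an accessory subunit encoded on the X chromosome (47142216 to 47145491), had 6818, 5884 and 6095 normalised reads with indisulam, 11108, 11889 and 11401 with pladienolide B, and 6060, 5722 and 5349 with DMSO. Only the pladienolide B libraries stood apart (1.01 ± 0.07, 2.01-fold, adjusted p = 1.66e-08). NDUFA13, an accessory subunit also known as GRIM-19, rose by 0.99 ± 0.07 with pladienolide B and by 0.23 ± 0.07 with indisulam (adjusted p = 3.91e-08 and 0.032). Its indisulam call was kept in 5 of 9 fits that left out a library, and not with TMM scaling or the same total. Of the NDUFA13 windows of 50 bases, 41.3% are shared with other genes. NDUFB4 rose by 0.25 ± 0.06 with indisulam (adjusted p = 0.00795).

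NDUFB8 was the exception of the membrane arm with indisulam. This accessory subunit (GSHG0005394, chromosome 10, 100523730 to 100529923) had 6665, 5816 and 5985 normalised reads with indisulam, 13270, 13386 and 12145 with pladienolide B, and 7339, 7307 and 6876 with DMSO. The indisulam values lay below DMSO (-0.22 ± 0.07, adjusted p = 0.0223), a call kept in 5 of 9 fits that left out a library, and the pladienolide B values lay far above (0.85 ± 0.07, adjusted p = 5.5e-08). Of its 50-base windows 72.7% are shared with another annotated gene, so reads may be split between them.

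**Figure D2:**
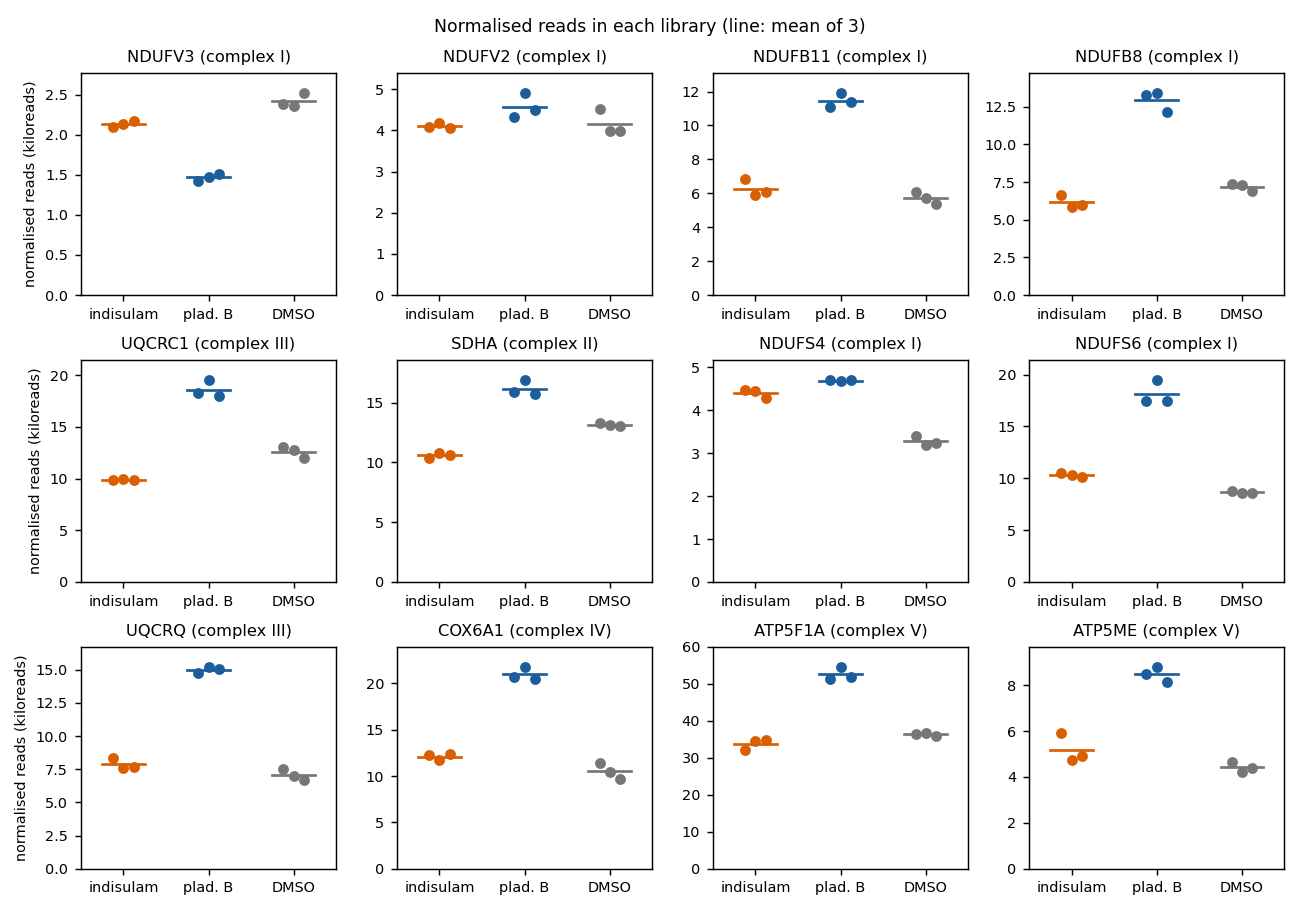
Normalised reads (vertical axes from 0, in kiloreads) of 12 members in each of the 9 libraries; points are libraries, lines are means of 3. NDUFV3 is lowest with pladienolide B, NDUFV2 overlaps between pladienolide B and DMSO, and NDUFB8, UQCRC1 and SDHA are lowest with indisulam and highest with pladienolide B.

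Complex II had the smallest median rise with pladienolide B, and its largest subunit fell with indisulam. All 4 members were higher with pladienolide B at the deposited scaling (1 higher and 1 lower with the same total), with a median of 0.42 against 0.77 to 0.83 in the other complexes. SDHA, the flavoprotein that oxidises succinate (GSHG0034051, chromosome 5, 218283 to 257082), had 10398, 10821 and 10598 normalised reads with indisulam, 15912, 16878 and 15688 with pladienolide B, and 13336, 13141 and 13031 with DMSO. The 3 groups did not overlap. SDHA fell by 0.31 ± 0.05 with indisulam (adjusted p = 0.000557) under every scaling, and rose by 0.29 ± 0.05 with pladienolide B (adjusted p = 0.000128). That rise turned round to -0.18 at equal library totals and to -0.10 under quantile normalisation.

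SDHB, the iron-sulfur subunit, had 5995, 6057 and 6047 normalised reads with indisulam, 8350, 9126 and 8318 with pladienolide B, and 5743, 5837 and 5511 with DMSO. It rose by 0.59 ± 0.06 with pladienolide B (adjusted p = 4.59e-07), and the indisulam difference did not pass (0.08 ± 0.06, adjusted p = 0.306). The membrane anchors SDHC and SDHD rose by 0.43 ± 0.06 and 0.41 ± 0.06 with pladienolide B (adjusted p = 1.39e-05 and 2.24e-05), and stood at -0.05 and -0.06 with the same total per library. With indisulam SDHC was at 0.09 and SDHD at -0.08, and neither passed (adjusted p = 0.285 and 0.311). SDHA and SDHD share 22.3% and 27.7% of their 50-base windows with other genes.

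In complex III the core protein UQCRC1 fell with indisulam, and 3 of 5 small accessory subunits were higher at the deposited scaling but none with the same total. UQCRC1, core protein 1 (GSHG0031266, chromosome 3, 48599002 to 48610037), had 9866, 9956 and 9905 normalised reads with indisulam, 18242, 19515 and 17989 with pladienolide B, and 13033, 12736 and 11953 with DMSO. All groups stood apart. UQCRC1 fell by 0.34 ± 0.05 with indisulam (fold of 0.788, adjusted p = 0.000482), the largest fall of any member there, and rose by 0.56 ± 0.05 with pladienolide B (adjusted p = 4.94e-07), where it stood at 0.09 and was not called with the same total per library. UQCRQ, a small accessory subunit (GSHG0034690, chromosome 5, 132866642 to 132868847), had 8347, 7628 and 7698 normalised reads with indisulam, 14752, 15197 and 15047 with pladienolide B, and 7494, 6959 and 6656 with DMSO. Its rise with pladienolide B was the largest of all members (1.09 ± 0.06, 2.13-fold, adjusted p = 2.15e-09), and the indisulam difference did not pass (0.17 ± 0.06, adjusted p = 0.054).

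UQCR11 and UQCR10, further small subunits, rose by 0.22 ± 0.07 and 0.19 ± 0.06 with indisulam (adjusted p = 0.0273 and 0.0422; neither passed with the same total) and by 0.85 ± 0.07 and 0.80 ± 0.06 with pladienolide B. UQCRB, which helps to bind ubiquinone, rose by 0.85 ± 0.05 with pladienolide B. UQCRFS1, the Rieske iron-sulfur protein, had the smallest rise of the complex with pladienolide B (0.44 ± 0.06, adjusted p = 2.43e-05), and stood at -0.03 with the same total per library. UQCRH, the hinge protein, and its intronless copy UQCRHL were both higher with each drug at the deposited scaling. Of 9 fits that left out a library, the indisulam call was kept in 3 for UQCRH and 7 for UQCRHL. With TMM scaling or the same total UQCRHL kept that call and UQCRH did not. Their ratio (UQCRHL over UQCRH) stayed between 0.980 and 1.13 in all 9 libraries, and 29.4% of UQCRH windows and 8.45% of UQCRHL windows are shared with other genes. The UQCRHL windows come from an annotated transcript of 2180 bases. Its deposited feature spans only 15807162 to 15807699 on chromosome 1, and the share within that span was not computed. How far their reads can be told apart was not tested. Over the complex 8 of 8 members were higher with pladienolide B (6 with the same total), and 4 higher and 1 lower with indisulam (1 and 1).

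With pladienolide B all 11 tested members of complex IV were higher, between 0.67 (COX7A2L) and 1.00 (COX6A1), and all 11 were also higher once libraries had the same total (median 0.36). COX6A1, the widely expressed form of its subunit (GSHG0009496, chromosome 12, 120438090 to 120440730), had 12282, 11706 and 12321 normalised reads with indisulam, 20713, 21739 and 20416 with pladienolide B, and 11455, 10381 and 9695 with DMSO. No group overlapped another, with a rise of 1.00 ± 0.06 with pladienolide B (adjusted p = 8.35e-09) and of 0.21 ± 0.06 with indisulam (adjusted p = 0.0268). COX6A1 shares 44.0% of its windows with other genes, most with the pseudogene COX6A1P2. COX7C, a small membrane subunit, and COX5B, a zinc-binding subunit on the matrix side, rose by 0.93 ± 0.06 and 0.92 ± 0.07 with pladienolide B. With indisulam 3 members were higher, COX5B (0.25 ± 0.07, adjusted p = 0.0194), COX6A1 and COX6C (0.16 ± 0.05, adjusted p = 0.0453), and none was lower at the limma threshold, also with the same total per library (COX5B alone higher) or TMM scaling.

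Complex V also rose with pladienolide B, with 17 of 17 tested members higher (0.53 to 0.94) and 16 with the same total; with quantile normalisation 15 were, and ATP5F1A turned to -0.09. ATP5ME, the e subunit of the membrane part (chromosome 4, 672436 to 674310), had 5934, 4719 and 4907 normalised reads with indisulam, 8486, 8785 and 8138 with pladienolide B, and 4659, 4233 and 4397 with DMSO. It rose by 0.94 ± 0.08 with pladienolide B (adjusted p = 1.65e-07), and indisulam replicate 1 stood above the other libraries of its group. ATP5PF, the coupling factor of the peripheral stalk, and ATP5MF, the f subunit, rose by 0.88 ± 0.06 and 0.85 ± 0.05 with pladienolide B.

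ATP5F1A, the alpha subunit, had the smallest rise of the complex with pladienolide B (0.53 ± 0.05, adjusted p = 4.32e-07), at 52639 ± 1675 against 36375 ± 423 normalised reads in DMSO (SD, n = 3), and stood at 0.06 at equal library totals, where it was not called, and at -0.09 under quantile normalisation. ATP5F1B, the catalytic beta subunit, rose by 0.72 ± 0.05 (adjusted p = 3.71e-08). With indisulam 2 members were higher, ATP5MJ, a small membrane subunit (0.20 ± 0.06, adjusted p = 0.0173), and ATP5PF (0.19 ± 0.06, adjusted p = 0.0245), and 15 did not pass. Neither passed with the same total. ATP5F1A, ATP5F1D and ATP5MC1, subunits of the head, the central stalk and the rotor ring, had 3 indisulam values below all DMSO values without passing (-0.11, -0.15 and -0.14; adjusted p = 0.127, 0.137 and 0.0787). With the same total per library these 3 were called lower, at -0.16, -0.21 and -0.19.

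The drugs also differed from each other, although their doses and times differ as well. With pladienolide B over indisulam 70 members were higher, 1 lower and 2 not called, against 34.7% of all features higher and 35.6% lower. At equal totals 61 were higher and 4 lower, against 17.9% and 50.4%. The median was 0.68 over the members and 0.01 over all features (0.27 and -0.40 with the same total). The largest differences per complex were those of NDUFB8 (1.07) and NDUFB11 (0.87), SDHA (0.61) and SDHB (0.51), UQCRQ (0.93) and UQCRC1 (0.91), COX6A1 and COX7C (0.79 each), and ATP5F1D (0.93) and ATP5MC1 (0.88). NDUFV3 was lower with pladienolide B also in this comparison (-0.54 ± 0.07, adjusted p = 4.84e-06). NDUFS4 was not called (0.09 ± 0.06, adjusted p = 0.154), nor was NDUFV2 (0.15 ± 0.07, adjusted p = 0.0609). Scaled to the same total, both turned and were called lower (NDUFS4 at -0.325, adjusted p = 0.000213, and NDUFV2 at -0.265, adjusted p = 0.00244), as was UQCRFS1 (-0.15, adjusted p = 0.0231). The comparisons share libraries and are therefore not independent.

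The members together made up 0.987%, 0.946% and 0.955% of a library with indisulam, 1.15%, 1.15% and 1.15% with pladienolide B, and 0.981%, 0.944% and 0.923% with DMSO. The pladienolide B libraries were thus the highest, and the indisulam libraries overlapped DMSO. As a share of the library, complex IV stood at 0.201 ± 0.00214% with pladienolide B and 0.156 ± 0.00633% with DMSO (SD, n = 3). Complex II was the exception, at 0.0507 ± 0.000472% with indisulam, 0.0538 ± 0.000384% with pladienolide B and 0.0564 ± 0.00128% with DMSO (SD, n = 3). All 3 DMSO libraries lay above the others in that share. The transcripts of the mitochondrial chromosome, which carries the other respiratory genes, took 9.76 to 10.1%, 13.7 to 14.0% and 8.27 to 9.14% of the library in the same 3 groups. Of 15 features tested on that chromosome at the deposited scaling, 5 were higher with indisulam and 15 with pladienolide B (median 1.09). Over all features 14.5% and 34.3% were higher. None of the 15 was lower at the limma threshold, against 12.4% and 35.5% of all features.

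**Figure D3:**
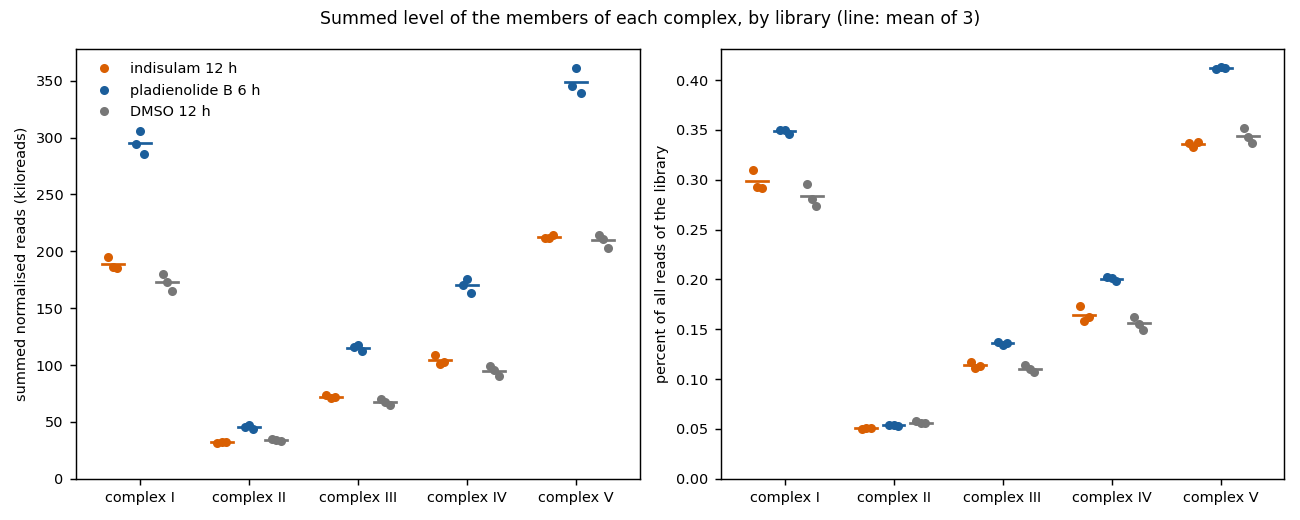
Summed level of the members of each complex in each library, as normalised reads (left, in kiloreads) and as percent of all reads of the library (right); points are libraries, lines are means of 3, and both axes start at 0. Pladienolide B is highest in all 5 complexes on the left and in all but complex II on the right, where DMSO is highest.

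**Figure D4:**
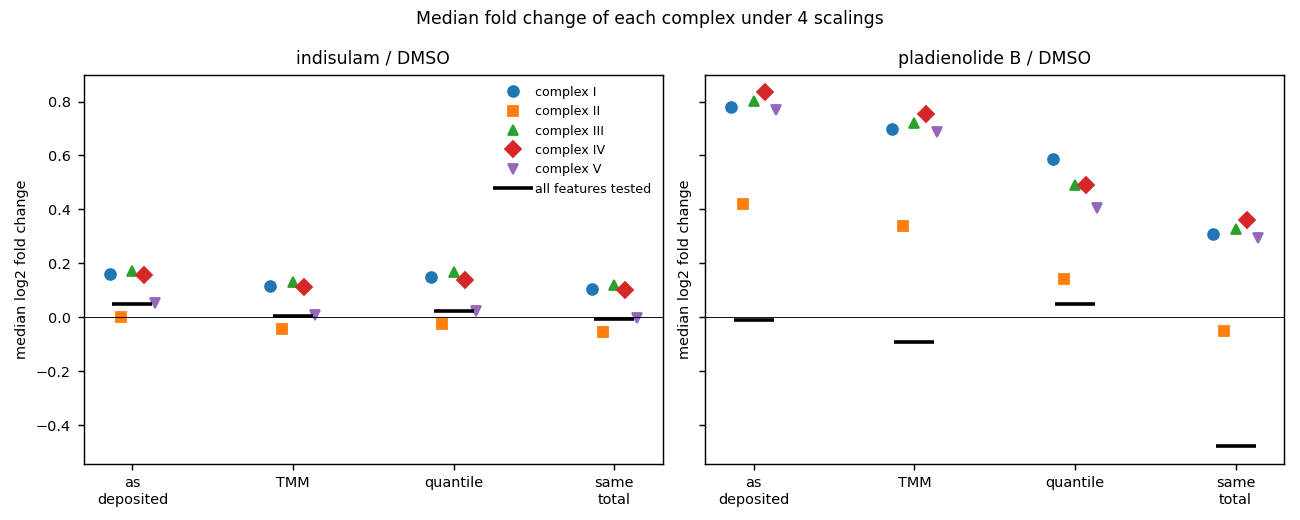
Median log2 fold change of the tested members of each complex (points) and of all 16846 features (bars) under the deposited scaling, TMM, quantile normalisation and the same total per library. With pladienolide B the complexes I, III, IV and V stay above 0 under each scaling and complex II falls to -0.05 with the same total; with indisulam the medians lie between -0.06 and 0.17.

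The members are short genes with few introns. The 73 tested members had a median of 3 introns and 387 coding bases in the annotated main transcript (GENCODE 29), against 8 introns and 1410 coding bases over 12508 protein-coding features tested. Across the 73 members the log2 fold change with indisulam ran against intron number (Pearson r = -0.61, Spearman rho = -0.46) and coding length (r = -0.58, rho = -0.49). With pladienolide B the same values were r = -0.34 and rho = -0.49 for introns and r = -0.37 and rho = -0.58 for coding length. These are descriptions over genes that share the same libraries and are no independent replicates. SDHA with 14 introns, UQCRC1 with 12 and NDUFB8 with 4 were among the 4 that fell with indisulam. NDUFA9, with 10 introns, was called higher.

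The members were also set beside all protein-coding features of like intron number, at the deposited scaling only. Among features with 9 or more introns, 9 of 9 members were higher with pladienolide B (median 0.61), while 1469 of 5927 of all such features were higher and 2885 lower (median -0.27). With the same total per library SDHA of this group was called lower (-0.18), and UQCRC1 (0.09) and ATP5F1A (0.06) were not called. NDUFA9, NDUFA10, NDUFV1, ATP5F1B and ATP5F1C were still called higher there. Among features with 3 or 4 introns, 33 of 33 members were higher with pladienolide B (median 0.81), against 874 of 1903 higher and 582 lower (median 0.20). With indisulam the medians for 3 or 4 introns were 0.16 for members and 0.11 for all features, and for 9 or more introns -0.04 and -0.05. NDUFV3, which fell with pladienolide B, has 2 introns in its main coding transcript.

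**Figure D5:**
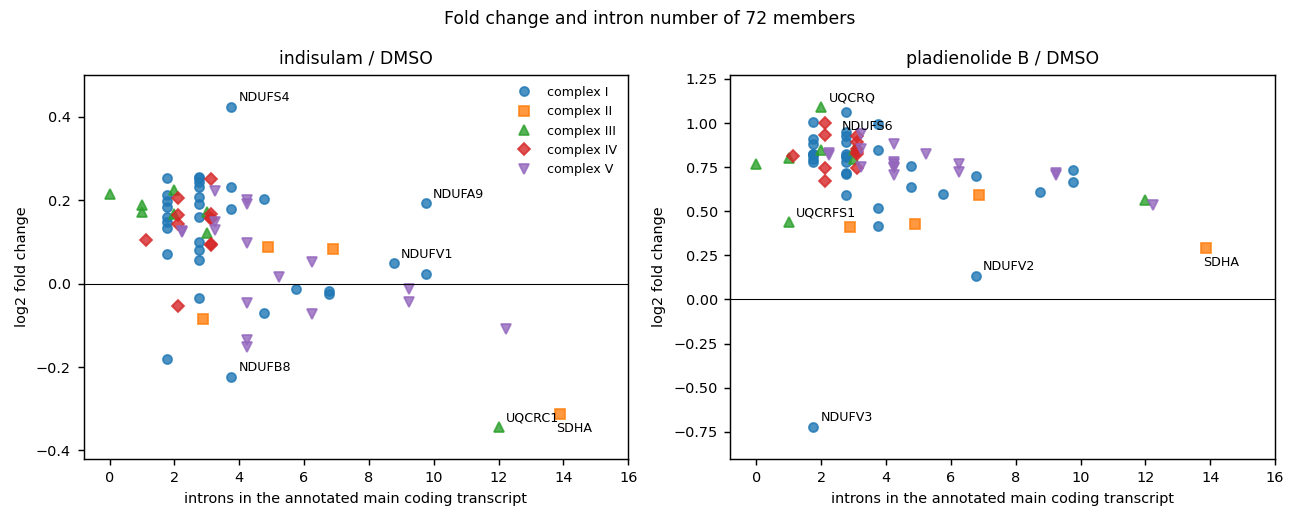
Log2 fold change against DMSO of 72 of the 73 tested members (vertical axis) by the number of introns in the annotated main coding transcript (horizontal axis; points are shifted slightly sideways by complex). With indisulam the members drawn with 12 or more introns lie below 0; with pladienolide B they lie between 0.29 and 0.56, and NDUFV3, with 2 introns, lies at -0.72.

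Respiratory subunits outside the rule were also higher with pladienolide B. Of 4 tested, all were higher with pladienolide B (median 0.77), and 3 of them with the same total (CYC1 stood at 0.07). CYC1, the cytochrome c1 of complex III, had 8604 ± 359 normalised reads with indisulam, 15811 ± 848 with pladienolide B and 10862 ± 427 with DMSO (SD, n = 3). It fell by 0.34 ± 0.06 with indisulam (adjusted p = 0.000974), and rose by 0.54 ± 0.06 with pladienolide B (adjusted p = 1.71e-06). NDUFAB1, the acyl carrier protein of complex I, rose by 0.18 ± 0.06 with indisulam (adjusted p = 0.0361).

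Assembly factors, which build the complexes and are no part of them, were divided with both drugs. Of 54 tested, 33 were higher and 6 lower with pladienolide B (median 0.32), against 34.3% and 35.5% of all features. At equal library totals this became 11 and 23 (median -0.16), against 16.2% and 53.9% of all features (median -0.48). With indisulam 14 were higher and 8 lower (median 0.08), against 14.5% and 12.4% of all features. These became 10 and 10 at equal totals, against 10.2% and 15.1%. SDHAF1, an assembly factor of the iron-sulfur subunit of complex II, stood at 739.7 ± 35.4 with indisulam, 1848 ± 127 with pladienolide B and 590.0 ± 31.4 with DMSO, a rise of 1.64 ± 0.09 with pladienolide B (adjusted p = 1.74e-09). SDHAF2, needed to insert flavin into SDHA, fell by 0.85 ± 0.09 with pladienolide B (adjusted p = 8.87e-07) and by 0.42 ± 0.09 with indisulam (adjusted p = 0.00311). UQCC1, an assembly factor of complex III, fell by 0.77 ± 0.07 with pladienolide B and by 0.36 ± 0.07 with indisulam. The complex I factors NDUFAF5 and NDUFAF8 rose by 1.09 ± 0.11 and 1.07 ± 0.06 with pladienolide B. With indisulam NDUFAF1, another complex I factor, rose by 0.63 ± 0.10 and FOXRED1 fell by 0.70 ± 0.08 (adjusted p = 0.000458 and 6.33e-05). The lowest value of any assembly factor with indisulam was -0.84, in complex V. Of the 4 factors tested for that complex, 0 were higher and 1 lower with indisulam.

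Transcriptional regulators of mitochondrial genes were more often lower than higher with pladienolide B. Of 13 tested, 1 was higher and 7 lower (median -0.35), against 34.3% and 35.5% of all features. At equal library totals 0 were higher and 10 lower, against 16.2% and 53.9% of all features. Under quantile normalisation the split was 4 and 7. With indisulam 4 were higher and 1 lower, against 14.5% and 12.4% of all features. These became 2 and 1 at equal totals, against 10.2% and 15.1%. NRF1, the activator whose core letters were counted above, ran from 1827 to 1896 normalised reads with indisulam, from 402.3 to 622.9 with pladienolide B and from 1568 to 1699 with DMSO. It fell by 1.80 ± 0.13 with pladienolide B (adjusted p = 4.3e-08), as did POLRMT, the mitochondrial RNA polymerase (1.51 ± 0.10 lower on the log2 scale, adjusted p = 1.33e-08). TFAM, which packs mitochondrial DNA, rose by 0.45 ± 0.06 with pladienolide B (adjusted p = 8.42e-06). With the same total per library TFAM stood at -0.02, against a median of -0.48 over all features. With indisulam PPARGC1A and TFB2M rose by 0.76 ± 0.25 and 0.65 ± 0.11 (adjusted p = 0.041 and 0.000698), and ESRRA, an oestrogen-related receptor, fell by 0.42 ± 0.09 (adjusted p = 0.00488).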

How the data were processed

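Messenger RNA was sequenced in 9 libraries with a stranded kit, per the labels' protocols. Tools listed by the submitters' processing notes include STAR 2.7.5a and DESeq2, with the build hg38. The sources used here do not give how reads were counted, or on which strand. The authors deposited 1 table with a signal per feature, reads per feature after scaling by a size factor for each library; the table is named as DESeq2-normalised and the notes list DESeq2 without its role. Values were whole multiples of 1 read (100% within 0.01 reads), so reads were recovered for the count tests. On these reads edgeR called 4716 features with indisulam and 11747 with pladienolide B, against 4532 and 11752 with limma. DESeq2 called 5222 and 11792. A count of 0 allows up to 3 reads, or 2.48 to 3.87 normalised reads, for counting error only.

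Features with a mean of at least 10 (16846) were fitted with limma 3.58.1 (R 4.3.3) on log2(value + 1), a mean per group over all 9 libraries and a variance trend, two-sided, with Benjamini-Hochberg adjustment over all of them. Fold changes on this scale understate changes of low genes. The fit was tested on simulated data. Members and lists were chosen with earlier results of these data known. Named were, per drug and complex, up to 3 called members with the largest rise and fall, the 4 SDH genes, for the drugs against each other 2 per complex, and up to 2 genes per other list and direction. NDUFV1, NDUFV2, NDUFA9, UQCRFS1, COX7A2L, ATP5F1A and ATP5F1B were singled out after their values were seen. Gene structure came from GENCODE 29 and promoters from RefSeq. No libraries of 1 group agreed within sampling noise. Alternatives were TMM (edgeR 4.0.16), quantile normalisation, the same total, other filters and pseudocounts, edgeR and DESeq2 1.42.0 on recovered reads, a replicate block, only the 2 groups compared, and leaving out each library. The labels share replicate numbers between groups but do not say that a number marks a shared culture or day. Values of 1 member and 1 marker gene are not reported here, although counts and medians include them.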

Additional observations from a re-analysis of the deposited data

How the results depend on the processing

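With indisulam over DMSO the 22 higher members became 8 with TMM scaling, 8 with the same total per library, 38 with the replicate number as a block and 34 with only the 2 groups compared, and ranged from 6 to 31 when a library was left out (lower: 3 to 6). The 4 lower members became 7 with TMM scaling, 8 with the same total, 7 with quantile normalisation, 7 with the block, 7 with the same total without the mitochondrial chromosome and 2 without members sharing over 20% of their windows, the last because fewer members were counted. With pladienolide B over DMSO the 1 lower member became 3 with the same total, 2 with quantile normalisation and 2 with the same total without the mitochondrial chromosome. SDHA turned round with the same total (-0.18), quantile normalisation (-0.0956) and the same total without the mitochondrial chromosome (-0.0953), and SDHC (-0.0455) and SDHD (-0.0603) with the same total. The 1 member lower in pladienolide B over indisulam became 4 with the same total and 3 without the mitochondrial chromosome. The log2 ratio of the summed levels changed with the same total to 0.02 (from 0.07) for indisulam over DMSO, 0.28 (from 0.75) for pladienolide B over DMSO and 0.26 (from 0.68) for pladienolide B over indisulam. The cause of these changes was not tested. The same total without the mitochondrial chromosome and the count without members sharing windows were chosen after seeing the data. Same-numbered libraries of different groups correlated between 0.003 and 0.128 in their deviations from the group means. Different-numbered libraries correlated between -0.124 and 0.045, mostly below 0. The main fit did not take the numbers as pairs, and what they mark was not tested. The remaining 119 of 141 checks of counts and summed levels stayed within the limits set. Reads of overlapping or near-identical genes could not be separated, and no exon-level values were used.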
